A study of Homo sapiens with 151 samples.

Results

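The peak list titled HSF4 is 1 of the 151 samples of this series, of which 24 are input libraries and each of the others is 1 ChIP-seq peak list. It was chosen by its sample title alone and holds 13620 of the 1471857 peaks in all lists, which made it the 42nd longest. The cells were HepG2, a human liver cancer cell line, fixed with formaldehyde, and chromatin was pulled down with an antibody against a FLAG tag carried by HSF4. The labels cite the CETCh-seq protocol, in which genome editing adds the tag to the cell's own gene, and do not say whether the cells were a clone. All lists come from tagged proteins in the same line and the labels name no treatment, heat shock included. Each protein has 1 list, so there is no replicate list, and the files hold no depth of sequencing.

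HSF4 belongs to the heat shock factors, which bind DNA as trimers at the heat shock element (HSE), an array of alternating GAA and TTC triplets. HSF1 is the family member best known for switching on chaperone genes under stress. HSF4 is best known from the lens of the eye, where mutations in it cause cataract. The element searched here was GAANNTTCNNGAA or its reverse complement TTCNNGAANNTTC, which has 3 triplets with gaps of 2 bases. A summit counted as holding an HSE when at most 1 of the 9 fixed bases was mismatched and the element lay within 50 bp of the summit.

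The HSE was not enriched at HSF4 summits, so the element known for the protein of the label did not mark this list. It was found at 146 of 13620 summits, or 1.07% (95% Wilson interval 0.912 to 1.26). In windows of the same length 1000 bp to either side of the summits it was found in 1.98% (interval 1.82 to 2.15, 27240 windows), and at the TSS of 20033 protein-coding genes in 1.23%. A perfect element was present at 15 summits, or 0.11%, against 0.125% of the windows 1000 bp away and 0.115% of the TSS windows. Intervals cover counting error only, since peaks of 1 list are not replicates, and for the same reason no test was made between these shares.

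The sequences below show what the few elements look like. They are hg38 sequences read in the orientation that starts with GAA, and capitals mark the fixed bases that match. The first group are the perfect elements at HSF4 summits near chaperone or other heat-linked genes, followed by that of RXRA, the strongest peak with a perfect element. They were chosen after their values were seen.
HSPD1 and HSPE1, shared promoter, chr2:197500060-197500088, minus strand: attttctgGAAagTTCtgGAAccgagcga
DNAJA1, at the start of the first exon, chr9:33025268-33025296, plus strand: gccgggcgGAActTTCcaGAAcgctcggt
HSPH1, upstream of the TSS, chr13:31161943-31161971, plus strand: actgatcaGAActTTCcaGAAtctgcggc
HIKESHI, untranslated exon, chr11:86302346-86302374, minus strand: gagactaaGAAccTTCcaGAAtttgcggg
STIP1, upstream of the canonical TSS, chr11:64185419-64185447, minus strand: taggttctGAAtgTTCcgGAAatgccacg
RXRA, upstream of the canonical TSS, chr9:134323951-134323979, minus strand: ggaaggctGAAggTTCcaGAAgggccctc
The second group are the elements with 1 mismatch in chaperone promoters, whose summits lie in untranslated exon sequence of the canonical transcript.
HSPA9, chr5:138575390-138575418, minus strand: cgtggttgGAggtTTCcaGAAgcgctgcc
SUGT1, chr13:52652828-52652856, minus strand: ccaaggggGAAacTTCtgGAgaaacacca
CCT3, chr1:156338223-156338251, plus strand: aaccggcaGAAccTTCtgGAgagagagaa

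Among all lists the HSE share of HSF4 was below the middle. With every list limited to its 13620 strongest peaks, the other lists ranged from 0 to 2.35% with a median of 1.3%, and HSF4 ranked 96th of all lists. For perfect elements it ranked 51st. The highest share, 2.35%, was that of MGA. GC content moved with these shares. Windows at HSF4 summits held 64.9 ± 9.74% GC (SD over windows), which ranked 16th, against 50.1 ± 12.3% in the windows 1000 bp away and a median of 62% over the other lists. The HSE is rich in A and T, so windows were also compared within classes of GC content. In windows under 50% GC the HSE was present at 3.02% of HSF4 summits (interval 2.15 to 4.23), 2.9% of the windows 1000 bp away and 2.53% of summits in other lists. At 50 to 60% GC the shares were 1.8% (interval 1.38 to 2.34), 1.32% (1.09 to 1.59) and 1.76%. At 60 to 70% they were 0.886%, 0.858% and 1.02%, and at 70% or more 0.361%, 0.246% and 0.406%. Within each class of GC content the HSF4 share was above that of the windows 1000 bp away, unlike over all windows. Against the other lists it was higher under 60% GC and lower from 60% GC. In each class the interval of HSF4 overlapped those of both backgrounds.

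**Figure D1:**
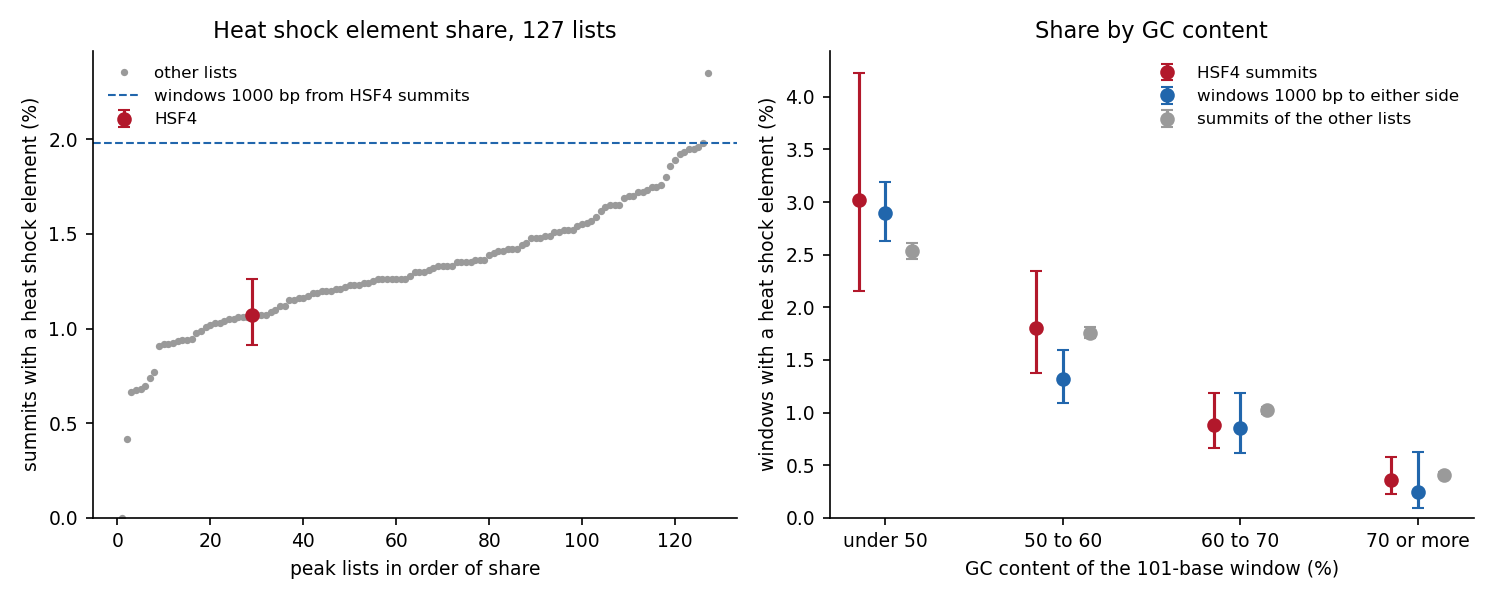
Left, percent of summits with an HSE (vertical axis) in each list in order of that share (horizontal axis), with HSF4 in red and its 95% Wilson interval; the dashed line is the share in windows 1000 bp from HSF4 summits. Right, the share by GC content of the window, with 95% Wilson intervals. The red points of HSF4 lie above those of the windows 1000 bp away in each class, with overlapping intervals.

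The spacing of the triplets was examined without the element itself. A GAA and a TTC triplet in either order, 2 bases apart, lay within 50 bp of 412 HSF4 summits, or 3.02% (interval 2.75 to 3.33). For the other gaps from 0 to 10 bases the share ranged from 1.47% to 2.82%, with a median of 2.53%. The gap of 2 bases was therefore the most frequent, 1.19 times the median of the others, though the intervals of neighbouring gaps such as 3 bases (2.82%, 2.55 to 3.11) overlap it. This ratio ranked 16th among the lists, of which the others ranged from 0.333 to 1.68 with a median of 1.07. At every gap the pair was rarer at summits than 1000 bp away. The summit-to-flank ratio was 0.659 at 2 bases and 0.495 to 0.644 at the others. These pairs were not split by GC content, of which summits held 64.9% and the windows 1000 bp away 50.1%. Longer arrays were rare. In all, 14 summits had a run of 3 perfect triplets and 1, at HSPD1 and HSPE1, a run of 4.

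The HSE did not become more frequent with the strength of the peak. Peaks were ranked by the authors' signal, which runs from 477 to 9.79 with a median of 38.2, and cut into 10 classes of 1362 peaks. The strongest class held an HSE at 0.881% of summits (interval 0.505 to 1.53) and the weakest class at 1.54% (1.01 to 2.35). The difference, strongest minus weakest, was -0.661 percentage points (Newcombe interval -1.55 to 0.181). Shares in the 8 classes between lay from 0.661% to 1.62%. None of the 50 strongest peaks and 3 of the 500 strongest had the element. With 0 of 50 summits a share of up to 7.13% lies within the Wilson interval. Mean GC was 69% in the strongest class and 61.7% in the weakest, and its part in the difference was not tested. Of the 15 perfect elements 1 lay in the strongest class, at RXRA, which encodes the retinoid X receptor alpha.

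Some other motifs did rise with signal. The E-box CACGTG, the element of many basic helix-loop-helix factors, was present at 6.75% of HSF4 summits (interval 6.34 to 7.18), against 1.46% of windows 1000 bp away and 3.29% of protein-coding TSS windows. It reached 16.1% in the strongest class (interval 14.2 to 18.1) and 3.23% in the weakest (2.42 to 4.31). Over all peaks the other lists had a median of 5.14% and HSF4 ranked 18th. In the 500 strongest peaks the share was 22% (interval 18.6 to 25.8), where the other lists had a median of 8.9% and HSF4 ranked 5th. The lists above it were MGA (37.8%), MLXIP (35.6%), ZNF528 (24.8%) and ZNF701 (23.8%), of which MGA and MLXIP are helix-loop-helix factors that bind E-boxes. The ETS site CCGGAAG was at 4.35% of HSF4 summits, 7.27% in the strongest class and 2.42% in the weakest, against 0.705% of windows 1000 bp away and 8.33% of TSS windows. HSF4 ranked 40th of all lists for it over all peaks and 37th in the 500 strongest. The GC box GGGGCGG, bound by SP and KLF factors, was at 11.5% of summits, against 3.22% of windows 1000 bp away and 20.9% of TSS windows. For the GC box HSF4 ranked 9th of all lists over all peaks and 24th in the 500 strongest. Among motifs of liver factors, the forkhead site TGTTTAC was at 1.34% of summits against 1.17% of windows 1000 bp away, the C/EBP site TTGCNNAA at 2.88% against 4.08% and the HNF4 site CAAAGTCCA at 0.352% against 0.125%. The AP-1 site TGANTCA (2.28% against 2.39%) and the CCAAT box GCCAAT (2.93% against 2.96%) were at the level of those windows. The CTCF core AGGGGGC (5.77% against 2.5%), the YY1 site AAGATGGC (1.17% against 0.323%), the NRF1 core CGCATGCG (0.595% against 0.0294%) and the CRE TGACGTCA (0.463% against 0.0587%) were above it. From the weakest class to the strongest, the GC box rose from 10.1% to 14.8% and the NRF1 core from 0.294% to 1.03%. The CRE went from 0.22% to 0.808%, the YY1 site from 0.808% to 1.03% and the HNF4 site from 0.22% to 0.367%. The CTCF core (5.29% to 5.07%), the CCAAT box (3.23% to 3.08%) and the AP-1 site (2.57% to 1.62%) did not rise. Nor did the forkhead site (1.25% to 0.954%) or the C/EBP site (4.04% to 2.42%). At TSS windows the CTCF core was present in 5.69%, the YY1 site in 3%, the NRF1 core in 1.24% and the CRE in 1.19%. HSF4 summits therefore did not exceed promoters in general by over 0.1 percentage points for any of these 4. No motif in this paragraph was compared within classes of GC content, which averaged 64.9% at summits and 50.1% in windows 1000 bp away. Mean GC was 69% in the strongest class and 61.7% in the weakest, and its part in these shares was not tested.

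**Figure D2:**
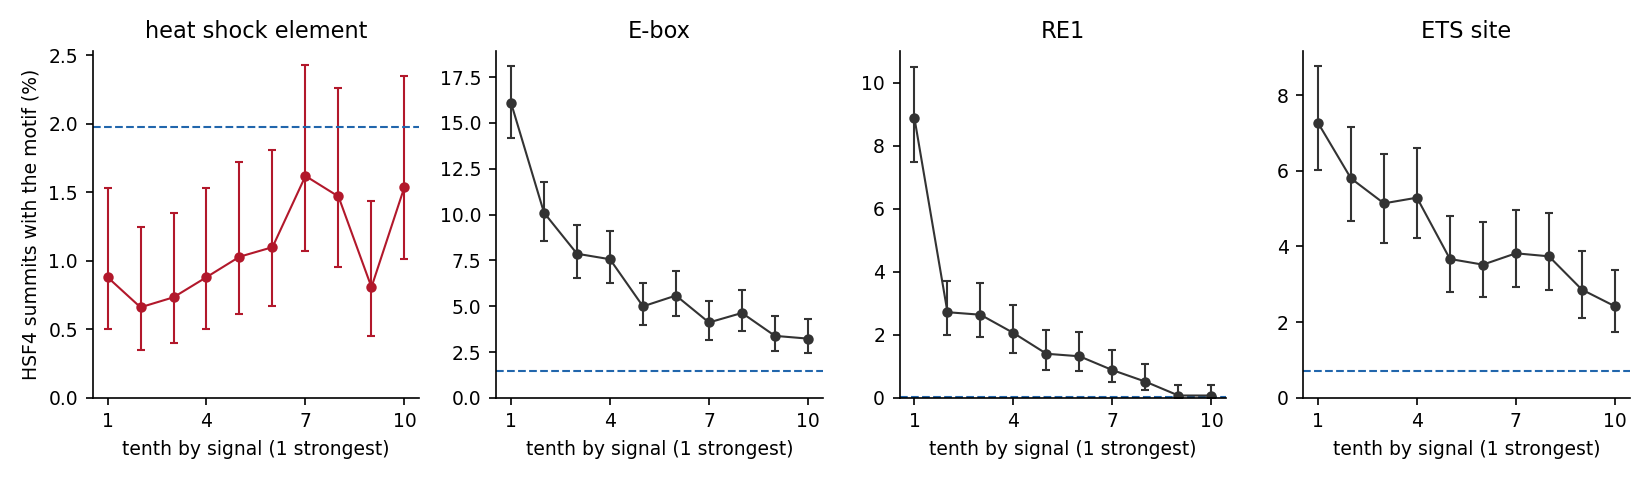
Percent of HSF4 summits with each motif (vertical axis) in 10 classes of the list by the authors' signal (horizontal axis, 1 is the strongest; 1362 peaks each), with 95% Wilson intervals; the dashed line is the share in windows 1000 bp away. The E-box falls from 16.1% to 3.23%, RE1 from 8.88% to 0.0734% and the ETS site from 7.27% to 2.42%, while the HSE stays between 0.661% and 1.62%.

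In the strongest class the E-box was most frequent at the summit itself and the HSE was not. There, 20 bp bins held 5.14 E-boxes per 100 peaks at the summit and 0.22 to 0.514 at 480 bp to either side. HSEs numbered 0.22 per 100 peaks at the summit (3 copies) and 0.734 at 480 bp to either side (10 copies each). Over all peaks the E-box stood at 1.81 at -20 bp, 1.57 at the summit and 1.66 at 20 bp. The HSE stood at 0.228, 0.345 and 0.242 in the same bins. The strongest HSF4 peaks with an E-box that lay in fewer than 31 other lists were at UBE2Q1, CFL2, PCED1A and a lncRNA, and that of RYBP followed. UBE2Q1 encodes an enzyme of ubiquitin conjugation, CFL2 a cofilin that cuts actin filaments and RYBP a Polycomb subunit. Their plus strand sequences are given to show the E-box, in capitals, in its setting.
UBE2Q1, rank 75, chr1:154558819-154558846: ctggcctcctcCACGTGatctctccgtc
CFL2, rank 256, chr14:34714701-34714728: ggcggggcggtCACGTGggcacgcctgg
PCED1A, rank 295, chr20:2840668-2840695: ggcggcctcgcCACGTGacccggacggg
RYBP, rank 422, chr3:72447362-72447389: ccggcggggcgCACGTGgccgcgcccgg

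**Figure D3:**
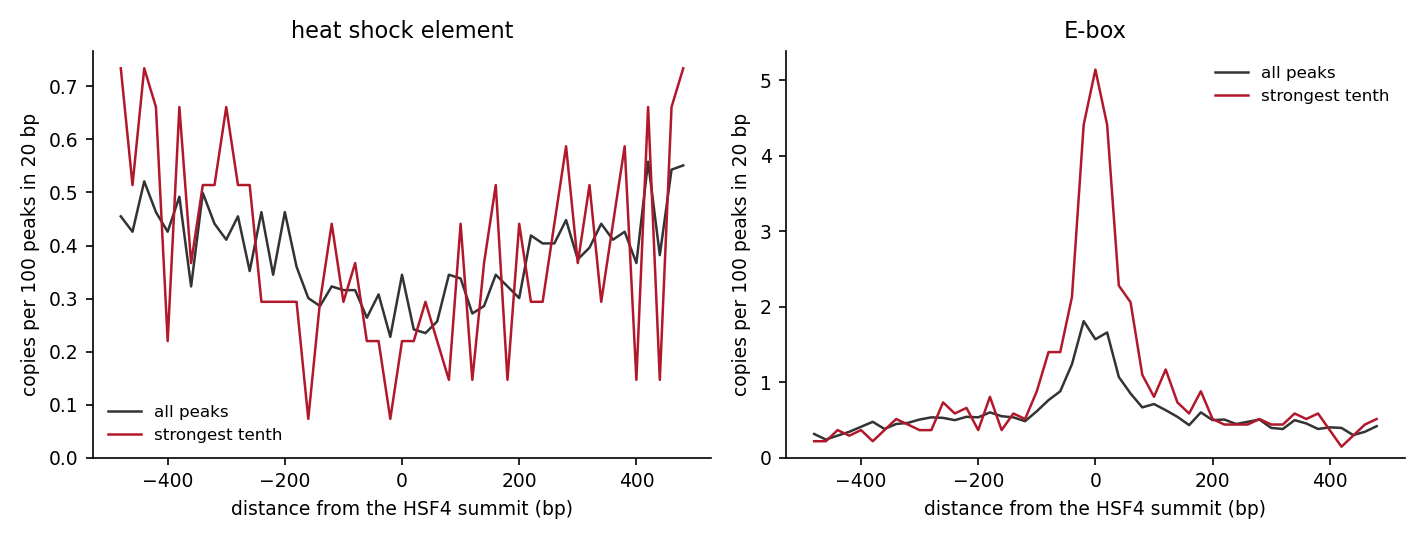
Copies of the HSE (left, at most 1 mismatch) and of the E-box (right) per 100 peaks in 20 bp bins (vertical axis) by distance from the HSF4 summit (horizontal axis, bp), for all 13620 peaks and for the strongest class. The E-box climbs to 5.14 at the summit in the strongest class, and the HSE stays under 1 throughout with its lower values near the summit.

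The strongest HSF4 peaks were places that nearly every list shared. The 10 strongest had signals of 284 to 477, had a summit of 117 to 125 of the other lists within 50 bp, and held 0 HSEs. They lay nearest to NPAS4, INSM2, XKR7, RANBP3-DT, ZFPM1, CELSR3, MIR7-3HG, a lncRNA, UNC5A and NKX1-1. The first, rank 1 with a signal of 477.4, was in NPAS4, which encodes an activity-dependent factor of neurons, at 754 bp downstream of the TSS (chr11:66421580-66422006) and was shared with 124 lists. INSM2, CELSR3 and UNC5A are also genes known mainly from neural or neuroendocrine cells. RE1, the element of the repressor REST, was searched after these peaks had been seen, as TTCAGCACCNNGGACAG with at most 2 of 15 fixed bases mismatched. It was present at 6 of the 10, at 52% of the 50 strongest (interval 38.5 to 65.2), at 16% of the 500 strongest and at 2.06% of all HSF4 summits, against 0.0404% of windows 1000 bp away and 0.0599% of TSS windows. The median share of other lists was 1.94% for all peaks and 10% for the 500 strongest, so HSF4 ranked 61st and 25th. RE1 and sharing went together. It was at 64.8% of 71 HSF4 summits shared with 100 or more lists, 7.87% of those shared with 31 to 99 and 0.586% of the rest. Examples from the 10 strongest peaks follow, with matching fixed bases in capitals.
NPAS4, minus strand, chr11:66421789-66421817: tgtgggTTCAGaACCatGGACAGagccat
XKR7, plus strand, chr20:31968548-31968576: cccgccgTCAGCACCaaGGACAGcgtagc
UNC5A, plus strand, chr5:176837766-176837794: cacactTTCAGCACCgtGGACAGccccag
NKX1-1, plus strand, chr4:1410642-1410670: gccgtgTTCAGCACCgcGGACAGcgccag

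The E-box was also more frequent at shared sites, though not most at the most shared. It was at 1.68% of HSF4 summits in no other list, 3.71% of those shared with 1 to 10 lists, 7.39% with 11 to 30, 15.2% with 31 to 99 (interval 13.8 to 16.8) and 12.7% with 100 or more (6.81 to 22.4). Likewise it was at 16% of the 50 strongest peaks (interval 8.34 to 28.5), beside 22% of the 500 strongest. Leaving out HSF4 sites in 31 or more other lists, the E-box share of the 500 strongest that remain was 7.6% and that of RE1 was 0%, alternatives chosen after seeing the data. The peaks that remain are also weaker.

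Most HSF4 sites lay near genes. A summit was within 500 bp of a canonical TSS for 53.1% of peaks (interval 52.3 to 54), which ranked 36th beside a median of 48.2% in the other lists. The share was 69% in the strongest class and 46.2% in the weakest. The HSE was at 0.981% of the summits near a TSS and at 1.18% of those farther away. An HSF4 summit lay in the promoter, 500 bp to either side of the canonical TSS, of 5802 of 20033 protein-coding genes, a background of 29.0%.

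Chaperone promoters were bound more often than this background, at 51 of 99 genes with a TSS over 7 lists, or 51.5% (interval 41.8 to 61.1). Shares ranged widely between the lists. HSF4 summits lay at 13 of 16 promoters of chaperonin and prefoldin subunits, which fold actin and tubulin or act in mitochondria, and at 14 of 24 of HSP40 J proteins, which hand clients to HSP70. They lay at 12 of 20 co-chaperone promoters and 5 of 10 of ER chaperones. They lay at 6 of 16 promoters of HSP70 and HSP110 genes, 1 of 4 of HSP90 genes and 0 of 9 of small heat shock proteins, the classes most linked to heat shock. The largest of these shares, 81.2%, had an interval of 57 to 93.4, and with 0 of 9 a share of up to 29.9% lies within the interval. Other proteins were sparse at the small heat shock genes too, with a median of 0 other lists in their promoters, against 57 for chaperonins and prefoldin. No summit lay at HSPA1A, HSPA1L, HSPA2, HSPA4L, HSPA6, HSPA8, HSPA12A, HSPA12B, HSPA13 or HSPA14, nor at HSP90AA1, HSP90B1 or TRAP1. Of the small heat shock genes, HSPB1, HSPB2, HSPB3, HSPB6, HSPB7, HSPB8, HSPB9, CRYAA and CRYAB had none.

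The strongest chaperone peak was at PTGES3, which encodes the HSP90 co-chaperone p23, with rank 238, a signal of 101.8 and a summit 76 bp downstream of the TSS. DNAJC11, a mitochondrial J protein, followed at rank 280 with a signal of 98.2 and 71 other lists at the summit. PDIA6, a disulfide isomerase of the ER, had rank 616 and a signal of 79.4, and PFDN4, a prefoldin subunit, rank 715 and 76.6. DNAJB2 (rank 756) and DNAJB9 (rank 944), a J protein of the ER, completed the 6 chaperone promoters in the strongest class. The chaperonin subunits CCT2, CCT4 and TCP1 had ranks of 1390, 1428 and 1823 and signals of 64.1, 63.6 and 59.4. After DNAJA2 (rank 2348), HSPA9, the mitochondrial HSP70, had rank 2436 and a signal of 54.6. HSPA1B, a stress-inducible HSP70, had rank 2723 and a signal of 52.7, DNAJC7 rank 2742 and HSPA4 rank 3201. DNAJC3, PFDN5, BAG2, CCT8, DNAJC10 and HYOU1 filled the places to rank 4230. The sequence of HSPA1B is nearly the same as that of HSPA1A, whose promoter had no summit, so reads of the pair may have been split or lost and both values are uncertain. Over all bound chaperone promoters the median rank was 5061.

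At chaperone promoters the HSE was more frequent than over the whole HSF4 list. Taking 1 peak for each of the 51 promoters gave 50 peaks, because 1 peak served both HSPD1 and HSPE1. Of these, 3 had a perfect element within 50 bp of the summit and 3 one with 1 mismatch, all shown in the first set of sequences. The 6 were 12% of the 50 (interval 5.62 to 23.8), against 1.07% of all HSF4 summits, and the 3 perfect ones 6% (2.06 to 16.2), against 0.11%. Other proteins also had the element at their chaperone peaks. Counting every peak in these promoters, 6 of 62 HSF4 summits had an HSE, or 9.68% (interval 4.51 to 19.5). Over 84 other lists with at least 20 such peaks the share ranged from 0 to 19.1% with a median of 7.46%, and HSF4 ranked 27th. HSPD1 and HSPE1 encode the mitochondrial chaperonin and its lid. Their peak had rank 4653, a signal of 44.2 and a summit at -235 bp from the HSPD1 TSS and -304 bp from that of HSPE1, 1 bp from the centre of the element, and 30 other lists had a summit there. The peak of DNAJA1, a cytosolic J protein, had rank 6553, a signal of 38.8 and 35 other lists. That of HSPH1, which encodes HSP110, had rank 9886, a signal of 31.2 and 20 other lists. HIKESHI, the carrier that brings HSP70 into the nucleus under heat, had rank 9532, a signal of 32.2 and 16 other lists. Over the 15 perfect elements the centre was 1 to 32 bp from the summit, with a median of 19 bp.

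A perfect HSE in a chaperone promoter did not go with an HSF4 peak more often than its absence. Chaperone promoters are rich in the element, with a perfect copy within 500 bp of the TSS in 17.2% of 99 genes and in 1.32% of all 20033. HSF4 summits lay in 7 of the 17 chaperone promoters with a perfect copy (41.2%, interval 21.6 to 64), in 18 of 31 whose best copy had 1 mismatch (58.1%) and in 26 of the other 51 (51%). Those without a summit included HSPA6, HSPA8, HSP90AA1 and CRYAB, with perfect copies centred at -68, -49, -82 and -47 bp from the TSS. Over all protein-coding genes, 22.3% of 264 promoters with a perfect copy had a summit (interval 17.7 to 27.7) and 30.1% of those whose best copy had 2 or more mismatches. The ratio of the first share to that of all other promoters was 0.769, which ranked 88th of all lists. Over all protein-coding genes, promoters with a perfect copy were also less used by the other proteins, with a median of 2 other lists against 14. Chaperone promoters did not show this. Their medians were 45 other lists with a perfect copy, 39 with 1 mismatch and 38 with 2 or more.

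HSF4 summits at chaperone promoters followed the number of other lists there. Of protein-coding promoters with 31 to 60 other lists, 59.4% had an HSF4 summit, and 26 of 43 chaperone promoters (60.5%) did. With 61 or more other lists the shares were 85.5% and 86.4% (19 of 22), and with 11 to 30 they were 29.8% and 26.3% (5 of 19). With 1 to 10 other lists they were 5.11% and 11.1% (1 of 9), and with none 0.0297% and 0 of 6. Of the 99 chaperone promoters, HSF4 bound more than most lists, ranking 11th. Relative to each list's own share of all promoters the enrichment was 1.78 times, which ranked 72nd, and over 117 other lists of at least 1000 peaks the median was 1.82 times.

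**Figure D4:**
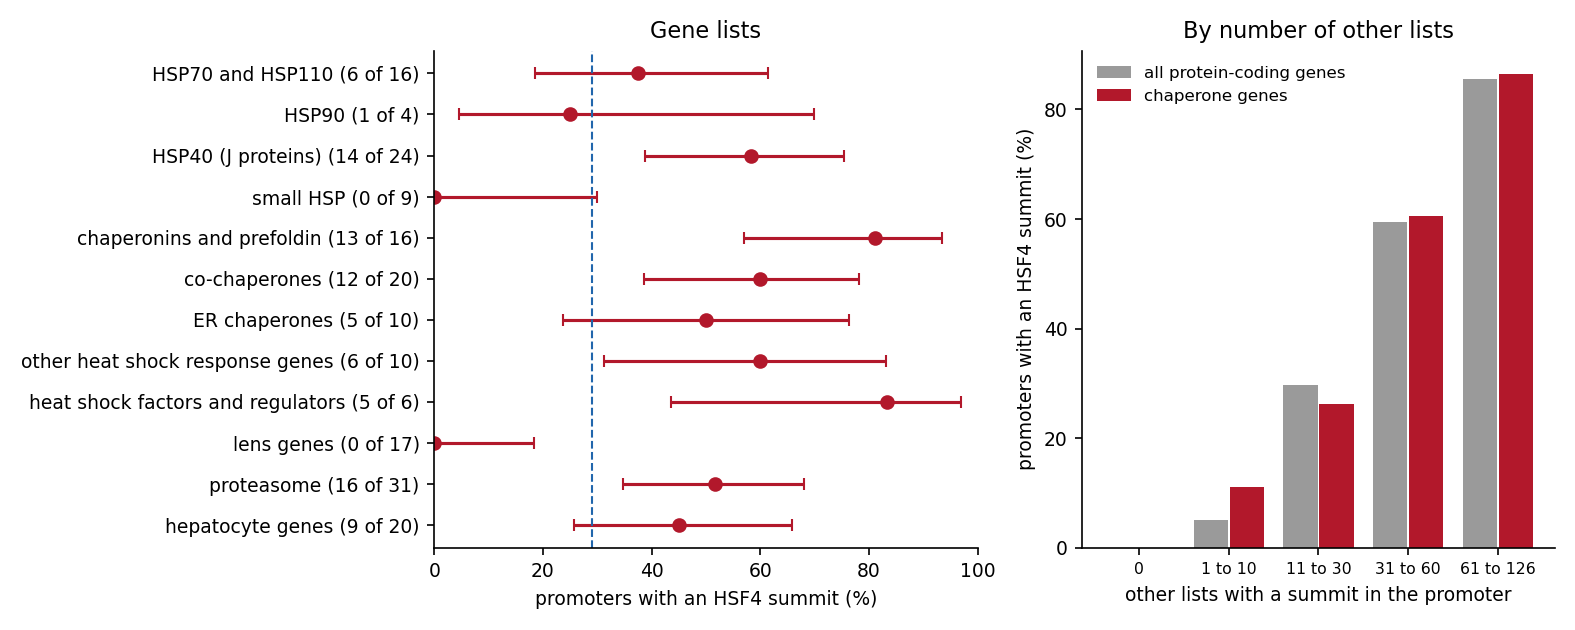
Left, percent of promoters with an HSF4 summit (horizontal axis) for 12 gene lists with 95% Wilson intervals and counts; the dashed line is the 29.0% of all protein-coding promoters. Right, the same percent (vertical axis) by the number of other lists with a summit in the promoter (horizontal axis), where bars of chaperone genes stand close to those of all genes, at 60.5% and 59.4% for 31 to 60 lists.

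Among the other heat shock lists, HSF4 summits lay at 5 of 6 promoters of heat shock factors and their regulators. HSF2BP, which encodes a partner of HSF2 known from meiosis, had rank 118, a signal of 124.9 and 68 other lists. HSBP1, HSF4 itself, HSF2 and HSF1 had ranks of 2865, 3027, 6884 and 10161, and HSF5 had none. These promoters had summits of a median of 53.5 other lists, and 29.0% of all promoters and 59.4% of those with 31 to 60 other lists had an HSF4 summit. Of the 17 lens genes, crystallins and lens membrane proteins among them, 0 had a summit, and with 0 of 17 a share of up to 18.4% lies within the interval. The median lens promoter had a summit of 0 other lists. Proteasome genes had a summit at 16 of 31 promoters (51.6%) and hepatocyte genes at 9 of 20 (45%), with medians of 47 and 44.5 other lists, which lie in that same class of 31 to 60.

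Sites with an HSE were shared with slightly fewer lists than those without. The median number of other lists with a summit within 50 bp was 9 (quartiles 2 and 19) for the 146 HSF4 sites with an HSE and 11 (quartiles 4 and 23) for the other 13474. The 15 sites with a perfect element had a median of 14, and 3 of them were in no other list. The quartiles of these groups overlap. Sharing rose with signal, from a median of 3 other lists in the weakest class to 42 in the strongest, where 67.3% of sites lay in 31 or more.

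The lists that shared HSF4 sites most were ZNF701 and ZNF571, both zinc finger proteins, and both came with the same input library as HSF4. With each list limited to its 13620 strongest peaks, ZNF701 had a summit within 50 bp at 34.8% of HSF4 sites, which was also 34.8% of its own. ZNF571, with 12766 peaks, had one at 28.3% of HSF4 sites, or 30.2% of its own. GLYR1 (26.7%), SALL1 (26.5%), E2F8 (24.8%), POU2F1 (23.7%), SRY (22.7%), MGA (22.4%), HES4 (21.7%) and FOXC1 (21.7%) came next. Over the 41 lists of at least 13620 peaks the median was 19.2%. The fewest sites were shared with GPBP1L1 (0.0881%), CENPX (0.316%) and SCMH1 (0.33%), lists of 73, 240 and 195 peaks, and these were 16.4%, 17.9% and 23.1% of those lists. HSF4 was also first among the lists shared by ZNF701, with 34.8% of its sites beside 34.6% for GLYR1, and HSF4 was second after ZNF701 among the lists shared by ZNF571. HIC2, the remaining list of that input, shared 17.8% of HSF4 sites and ranked 31st.

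**Figure D5:**
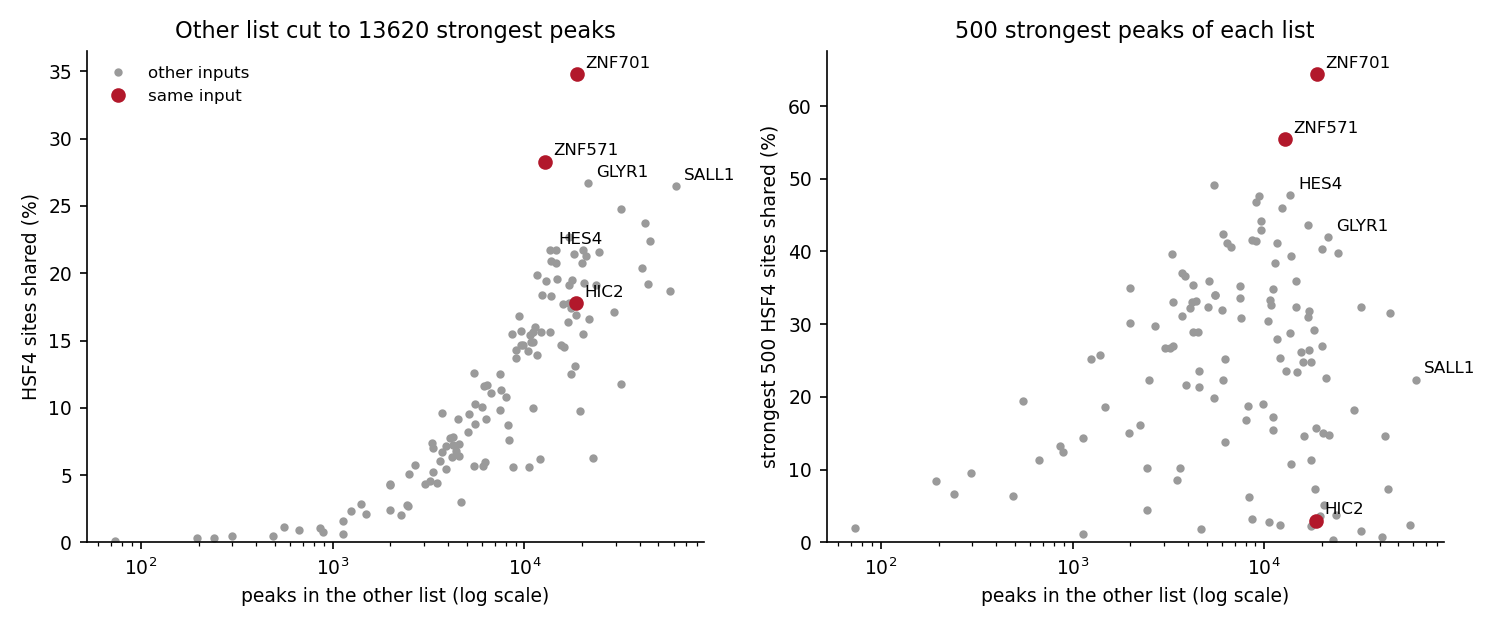
Percent of HSF4 sites with a summit of another list within 50 bp (vertical axis) against the number of peaks in that list (horizontal axis, log scale); red points have the same input library as HSF4. Left, other lists limited to 13620 peaks, where ZNF701 is at 34.8% and ZNF571 at 28.3%; right, the 500 strongest peaks of both, where they are at 64.4% and 55.4% and HIC2 at 3%.

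On average the lists of the same input shared more HSF4 sites than the rest, though HIC2, at 17.8%, lay below the 19.2% median of lists of at least 13620 peaks. The mean was 26.9 ± 8.6% (SD, 3 lists) against 11.5 ± 6.99% (123 lists), a difference of 15.5 percentage points with p = 0.000233 in a two-sided exact permutation test over lists. The test treated each list as a separate unit, though the lists came with only 24 input libraries. Short lists can share little, and among lists of at least 13620 peaks, an alternative chosen after seeing the data, the difference was 7.56 points with exact permutation p = 0.0512 (2 lists against 39). In the 500 strongest peaks ZNF701 shared 64.4% and ZNF571 55.4% of HSF4 sites, where the median of all lists was 25.6% and HIC2 shared 3%. The input is the only batch that the labels give, and what the proteins and the input each contribute cannot be told apart. Motif content was set beside that of HSF4. The E-box was in 23.8% of the 500 strongest peaks of ZNF701 and 19.2% of those of ZNF571, beside 22% for HSF4 and 5.6% for HIC2. RE1 was in 19.4%, 17%, 16% and 1.2%, and the HSE in 1%, 1%, 0.6% and 0.8%. Of the lists of other inputs, HES4 had the E-box in 20.2% and RE1 in 23.2%, and GLYR1 had them in 14% and 12.4%. Over all lists other than HSF4 the medians were 8.9% for the E-box and 10% for RE1.

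E-box sites were shared more widely than the rest, with a median of 22 other lists against 11. ZNF701 held 59.8% of HSF4 sites with an E-box and 33% of those without, and MGA held 60.4% and 19.7%. HSE sites were not. ZNF701 held 30.1% of HSF4 sites with an HSE and 34.9% of those without, and MGA 22.6% and 22.4%.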

How the data were processed

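Peak lists of FLAG ChIP-seq in HepG2 were analysed. Per the paper's methods, the authors ran the pipeline of ENCODE for ChIP-seq locally. The submitters' processing notes name hg38, and the labels name input libraries. Which aligner and caller it used is not given in the sources used here. The deposited score runs from 540 to 1000 and the deposited signal ranks peaks within a list but is not scaled between lists. The deposited q column was treated as a score, and the last column gives the summit. Depth is unknown.

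All peaks lie within the chromosomes of the hg38 reference. Motifs were counted in 101-base windows at summits, on both strands. RE1 and the E-box examples were chosen after seeing the data. TSSs are those of canonical transcripts in GENCODE 44 (38899 protein-coding and lncRNA genes). HSPB11 had no TSS under that symbol. Sites within 50 bp were counted as shared, and "other lists" counts whole lists. Lists were compared with exact permutation tests, and shares carry 95% Wilson intervals. Python 3.11.15, numpy 2.4.6 and pandas 2.3.3 were used, and the calculations were tested on simulated data. Named were the 20 strongest chaperone promoters, the genes of the 10 strongest peaks, the 10 lists sharing most and the 3 sharing fewest HSF4 sites and those of the same input. Proteins and gene lists were chosen with earlier results of these data known. Alternatives changed windows, mismatches, summits, scores, promoters and cuts. No sequence of chromosome 8 is printed, though its peaks enter all counts. The counts by sharing of the E-box and of HSEs at chaperone peaks in other lists were added after seeing the data.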

Additional observations from a re-analysis of the deposited data

How the results depend on the processing

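The HSE share at HSF4 summits was 0.543% with windows of 25 bp, 2.42% with 100 bp, 0.11% for perfect elements, 10.8% with 2 mismatches and 0.88% for peaks scored 830 or more. Windows 1000 bp away then held 0.914%, 4.15%, 0.125%, 18.4% and 1.93%, each above the summits. For perfect elements the intervals overlap, at 0.0668 to 0.182 for summits and 0.0893 to 0.174 for those windows. These settings were not split by GC content, of which summits held 64.9% and the windows 1000 bp away 50.1%. The difference between the strongest and weakest of the 10 classes became -5.36 percentage points with 2 mismatches (interval -7.64 to -3.1). It was -0.661 with windows of 25 bp (-1.36 to -0.0547) and 0 for peaks within 500 bp of a TSS only (-1.07 to 1.07). Mean GC was 69% in the strongest class and 61.7% in the weakest, and its part was not tested. Chaperone promoters with a summit fell to 23 at a score of 830 or more, or 23.2% beside 16.7% of all promoters, and were 44 to 58 otherwise. The largest share of HSF4 sites in another list was 44.6% for summits within 100 bp, 62.1% for peaks that overlap, 64.4% in the 500 strongest peaks, 40.9% at a score of 830 or more and 25.6% without sites in 31 or more other lists, all with ZNF701. Without a cut it was 45.3%, with SALL1, whose list is the longest. The difference by input was 7.56 points among lists of at least 13620 peaks, which passed no threshold (exact permutation p = 0.0512), and 11.5 to 20.1 when each list of that input was left out. Its p ranged from 5.53e-05 to 0.0512 over all alternatives. The median of other lists per site was higher with a perfect element, by 3 lists, and lower with each other setting. No paired analysis was possible because each protein has 1 list. Without replicate lists or read depth, no share carries an error beyond counting, and absence of letters in a window says nothing of the protein.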

Other observations

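HSF4 sites found in no other list numbered 891, or 6.54% of the list. They were weaker, with a median signal of 26.9 against 38.2 for all peaks, and 19.6% of them (interval 17.2 to 22.4) lay within 500 bp of a TSS. The HSE was at 11 of them, or 1.23% (interval 0.691 to 2.2), and a perfect copy at 3, those of ZNF280A, CHROMR and ANXA11. The interval for perfect copies, 0.115% to 0.985%, starts close to the 0.125% of windows 1000 bp away. The E-box was at 1.68% of them.

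Around its own gene HSF4 had 6 peaks. Beside the one at the promoter, which 52 other lists shared, summits lay at 9507, -4856 and -4653 bp from the TSS (ranks 1108, 3193 and 13394), shared with 35, 10 and 12 lists, and at -3751 and -5702 bp (ranks 7907 and 13196) in no other list. STIP1, which encodes the HSP70 and HSP90 organising protein, had no summit within 500 bp of its canonical TSS, though a peak of rank 2434 with a perfect HSE lay farther upstream, at chr11:64185218-64185677, and was shared with 57 lists. Of the other heat shock response genes, 6 of 10 had a summit, among them HMOX1 (rank 7091, signal 37.5) and UBB (rank 7582, signal 36.4), both under the median signal of 38.2 over all peaks. The background was 29.0% of all promoters and 59.4% of those with 31 to 60 other lists, and these 10 had a median of 47.5.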
